A study of Mus musculus with 6 samples.

Results

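The nuclear factor I (NFI) genes Nfia, Nfib, Nfic and Nfix were followed in cultured mouse small-cell lung cancer (SCLC) cells with active TAZ or a control virus. They were taken by gene symbol as the 4 NFI genes, out of 23107 symbols that stood on a single line of the expression table, and 3 of them passed the filter on low values. The filter asked for 1 FPKM or more (sequenced fragments per unit of transcript length, relative to the fragments mapped in that library) in at least 3 of the 6 libraries, and 12141 genes met it. Nfia stayed below it.

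NFI proteins are site-specific transcription factors that bind a palindrome with the core TTGGC as homodimers or heterodimers, through an N-terminal DNA-binding domain that the family shares. Each can activate or repress its targets, and the C-terminal parts, in which the family members differ most, carry these activities. NFIB is needed for lung maturation, and gain of Nfib is a known driver of tumour growth and metastasis in mouse SCLC. NFIA is best known for the onset of glia formation, NFIC for tooth root development, and NFIX for brain development and the fetal switch of muscle.

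The SMC-TAZ4SA group (3 libraries) carried a virus for TAZ4SA, a mutant form of the co-activator TAZ that is always active, and the SMC-Ctrl group (3 libraries) carried a control virus. SMC were NCAM-high cells with low or no CD44, sorted from lung tumours that had formed after Cre delivery by adenovirus in mice of mixed background with conditional Rb1 and Trp53 alleles, so loss of both tumour suppressors was shared by the groups. Infected cells were selected with puromycin. The data statement of the study describes this record as SMC against non-SMC, whereas the sample labels give the virus, and the labels were followed. Neither the age of the mice nor the number of animals behind the cells was used here, and no label says that the replicates were separate cultures, so every p-value here speaks of library-to-library spread alone, and that spread may be technical.

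FPKM totals ran from 284422 to 361800 per library, and 11079 to 11243 symbols reached 1 FPKM. The absolute depth is unknown. Across the tested genes, which are not independent replicates, log2 values correlated at 0.990 to 0.997 (Pearson's r) within groups and at 0.654 to 0.664 between them, and SMC-TAZ4SA replicate 1 was the library farthest from the others of its group. Wwtr1, the gene of TAZ, stood at 31.7, 36.0 and 35.8 FPKM in SMC-TAZ4SA, against 0.162, 0.105 and 0.162 FPKM in SMC-Ctrl. The sorting markers were both higher in SMC-TAZ4SA, with means of 78.5 FPKM in SMC-TAZ4SA and 21.4 FPKM in SMC-Ctrl for Ncam1, and of 76.4 and 0.257 FPKM in the same groups for Cd44. By western blot, the study reported less NCAM and more CD44 protein in SMC with TAZ4SA. The RNA of Ncam1 thus went the other way from the reported protein, and that of Cd44 the same way. Of 10 neuroendocrine markers, 9 were lower in SMC-TAZ4SA and Ncam1 was higher. Uchl1, though lower, stayed at 130 to 190 FPKM in SMC-TAZ4SA, against 399 to 449 FPKM in SMC-Ctrl. The other 8 did not exceed 1.27 FPKM in any SMC-TAZ4SA library and were at 24.6 FPKM or more in every SMC-Ctrl library. Of the 10 markers, 6 passed the filter on low values only through SMC-Ctrl and had to be lower. The remaining 4, which reached 1 FPKM in both groups, were 3 lower and 1 higher. All 10 passed the test given below, where 80.3% of all tested genes did.

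In the GENCODE M21 annotation of GRCm38, the assembly also called mm10, Nfib lay on the minus strand of chromosome 4 (82290173 to 82705750), and Nfia lay on the plus strand of the same chromosome (97772734 to 98118874). Nfic lay on the minus strand of chromosome 10 (81396186 to 81455635) and Nfix on the minus strand of chromosome 8 (84699876 to 84800344). The genes spanned 416, 346, 59.5 and 100.5 kb in that order, with 12, 8, 7 and 8 annotated transcripts, and FPKM per gene does not tell these transcripts apart.

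Promoter window sequence is shown for Nfix and Nfic, the NFI genes that were higher with TAZ4SA, from before the start site for Nfix and just after it for Nfic. RefSeq promoter windows of GRCm38.p6, from 250 bases before to 50 bases after a start site, matched 3 of the 4 genes in 6 windows, of which 4 belonged to Nfix. Nfib, the NFI gene that was lower, had no window, so no motif was read for it and the higher genes cannot be compared with it. Motifs were searched on both strands, and a match is a description of the letters only. They were TEAD (GGAATG), the DNA-binding partner family of TAZ, AP-1 (TGANTCA), which often lies beside TEAD sites, and the NFI core (TTGGC). AP-1 was searched with any middle base, a looser pattern than the usual site with C or G there. The windows of Nfic and Nfix lie inside the gene bodies annotated by GENCODE, and which start sites were in use was not measured. The 250 bases before the start of an Nfix window with an AP-1 match at position -81 and of an Nfix window with an NFI core at position -175 were as follows, with the matched letters in capitals, 5′ to 3′ on the minus strand.
Nfix, chr8:84780083-84780332: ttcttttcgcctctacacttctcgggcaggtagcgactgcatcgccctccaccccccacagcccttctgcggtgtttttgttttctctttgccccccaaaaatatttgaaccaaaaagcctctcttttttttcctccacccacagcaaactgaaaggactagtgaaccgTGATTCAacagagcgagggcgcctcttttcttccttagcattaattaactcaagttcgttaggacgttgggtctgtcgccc
Nfix, chr8:84775829-84776078: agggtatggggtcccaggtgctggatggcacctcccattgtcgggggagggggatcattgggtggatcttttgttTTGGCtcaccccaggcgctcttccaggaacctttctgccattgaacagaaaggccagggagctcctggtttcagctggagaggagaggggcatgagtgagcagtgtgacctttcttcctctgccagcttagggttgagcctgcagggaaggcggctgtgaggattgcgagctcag

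The Nfic window held an AP-1 match just after the start site, at position 11, on the minus strand, again with the match in capitals.
Nfic, chr10:81427147-81427173: gctgcaaaaaTGACTCAgtaagttcgg

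Matches to the loose AP-1 pattern were thus found in 1 window of Nfic and 1 of Nfix, and 7.81% of all 32817 RefSeq windows of this length held such a match. The middle base was C in the Nfic match and T in the Nfix match, so the Nfix match fits the looser pattern only. The NFI core was found in 3 of the 4 Nfix windows, where 46.7% of all windows held it. The TEAD letters were in none of the 6 windows and in 14.7% of all windows, and the full NFI palindrome was in none of the 6 and in 0.0366% of all. The Nfia window (chr4:97581693-97581992) held none of the motifs, and it lay far before the start of Nfia in GENCODE (97772734).

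Of the NFI genes, Nfix and Nfic were higher and Nfib was lower in SMC-TAZ4SA, by limma on log2(FPKM + 1), with p-values adjusted by Benjamini-Hochberg across the whole set of tested genes. Among all tested genes 80.3% passed this test, 40.7% higher and 39.7% lower, so 3 calls among 3 tested NFI genes lay near the background. The FPKM ranges of the groups did not overlap for the same 3 genes, as was so for 82.4% of tested genes. Each fold change below is a difference of mean log2(FPKM + 1), which understates the change of genes with low values. In bulk RNA, fewer cells of a type and less RNA per cell cannot be told apart.

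Nfib, the NFI gene linked to SCLC, was at 29.2, 32.3 and 31.3 FPKM in SMC-TAZ4SA, against 54.8, 48.6 and 50.2 FPKM in SMC-Ctrl. Every SMC-TAZ4SA library lay below every SMC-Ctrl library. The means were 30.9 ± 1.62 and 51.2 ± 3.20 FPKM (SD, n = 3 each), a log2 fold change of -0.71 (SE 0.0704, 95% interval -0.87 to -0.54, adjusted p = 2.86e-05 by limma). Nfib thus stayed expressed, and its SMC-Ctrl mean was 1.65 times its SMC-TAZ4SA mean. Its level was above that of 78.6% of tested genes in SMC-TAZ4SA and 90.5% in SMC-Ctrl.

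Nfix, the brain and muscle NFI factor, had the largest difference of the family. It was at 25.1, 38.3 and 39.1 FPKM in SMC-TAZ4SA, against 12.1, 11.5 and 9.90 FPKM in SMC-Ctrl. The lowest SMC-TAZ4SA value, in replicate 1, was still above the highest SMC-Ctrl value. The means were 34.1 ± 7.88 and 11.2 ± 1.13 FPKM (SD, n = 3 each), a ratio of 3.06 and a log2 fold change of 1.51 (SE 0.165, 95% interval 1.12 to 1.89, adjusted p = 5.32e-05 by limma). The level of Nfix was above that of 80.9% of tested genes in SMC-TAZ4SA and 50.8% in SMC-Ctrl. Lyl1, a gene on the other strand within the span of Nfix, was at or below 0.0882 FPKM in every library. Whether the authors counted reads by strand is not given in the sources used here.

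Nfic, the tooth root factor, was at 26.1, 34.3 and 33.2 FPKM in SMC-TAZ4SA, against 22.4, 22.9 and 19.8 FPKM in SMC-Ctrl. The groups did not overlap, but SMC-TAZ4SA replicate 1 lay closer to SMC-Ctrl than to the other SMC-TAZ4SA libraries. The means were 31.2 ± 4.45 and 21.7 ± 1.66 FPKM (SD, n = 3 each), a ratio of 1.44 and a log2 fold change of 0.50 (SE 0.110, 95% interval 0.24 to 0.76, adjusted p = 0.00332 by limma). With each library scaled to the same FPKM total, the difference of Nfic was 0.29 and no longer passed (adjusted p = 0.0838 by limma), whereas Nfib (-0.92) and Nfix (1.30) still passed.

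Nfia, the glial factor, was low in both groups, at 0.444, 0.428 and 0.393 FPKM in SMC-TAZ4SA and 0.409, 0.478 and 0.307 FPKM in SMC-Ctrl. The groups overlapped. The means were 0.421 ± 0.0263 and 0.398 ± 0.0862 FPKM (SD, n = 3 each). When the filter was dropped, its log2 difference was 0.03 (95% interval -0.09 to 0.14, adjusted p = 0.660 by limma). The pseudocount holds differences at this level near 0, so the interval does not bound the fold change of Nfia itself. E130114P18Rik, which overlaps the start of Nfia on the other strand, was listed at 0 in 5 of the 6 libraries.

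**Figure D1:**
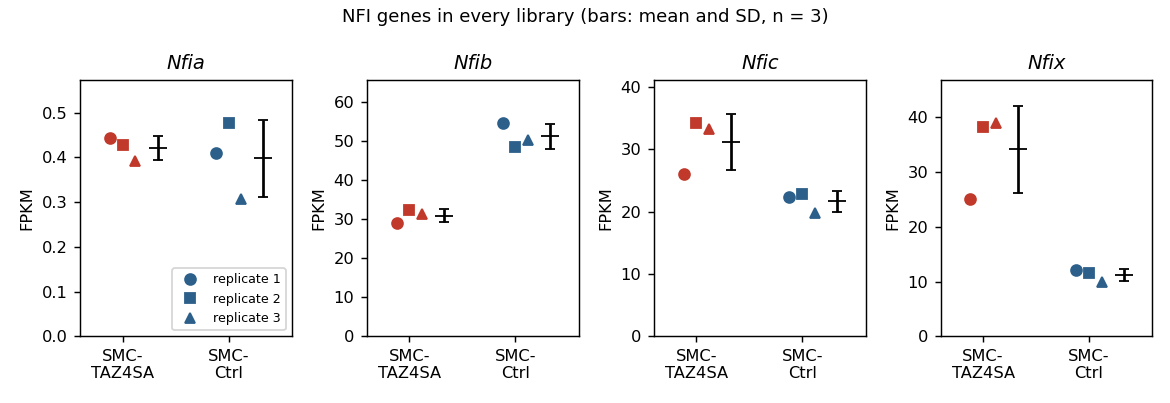
FPKM of each NFI gene (vertical axes from 0, each gene on its own scale) in the 3 SMC-TAZ4SA libraries, left, and the 3 SMC-Ctrl libraries, right, with a symbol per replicate and bars for the mean and SD. Nfix (34.1 and 11.2 FPKM on average) and Nfic (31.2 and 21.7 FPKM) were higher and Nfib (30.9 and 51.2 FPKM) was lower in SMC-TAZ4SA, while the Nfia groups overlapped below 0.5 FPKM.

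Among these genes, 19.4% of tested genes had a larger absolute fold change than Nfix, 44.6% a larger one than Nfib and 57.6% a larger one than Nfic. The spread between SMC-TAZ4SA libraries was widest for Nfix, with a coefficient of variation of 23.1% (10.1% in SMC-Ctrl), and narrowest for Nfib, at 5.24% (6.25% in SMC-Ctrl). SMC-TAZ4SA replicate 1 was the lowest library of its group for Nfib, Nfic and Nfix and the highest for Nfia. Without it the log2 fold changes were 1.71 for Nfix, 0.62 for Nfic and -0.67 for Nfib, and all 3 passed by limma.

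FPKM is scaled by length, so levels were set side by side between NFI genes, but the length used for each gene is not given. In GENCODE M21 the merged exons cover 14.957 kb for Nfib, 6.63 kb for Nfic and 7.351 kb for Nfix. The order of the genes within a group, and their shares of a sum, rest on the lengths that were used. In SMC-TAZ4SA the means of Nfix, Nfic and Nfib lay within the spread of the libraries and their ranges overlapped, while Nfia was far below. In SMC-Ctrl the order was Nfib, Nfic, Nfix and Nfia in every library, with no overlap between neighbours in that order. The lead of Nfib in deposited FPKM in SMC-Ctrl was thus not present in SMC-TAZ4SA.

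The 4 genes together summed to 80.7, 105 and 104 FPKM in SMC-TAZ4SA, against 89.6, 83.5 and 80.2 FPKM in SMC-Ctrl. The groups overlapped, and the mean sum was 12.3 FPKM higher in SMC-TAZ4SA as deposited but 1.01 FPKM lower (-1.01) with every library scaled to the same FPKM total and 2.97 FPKM higher with the same upper quartile. Single libraries also moved this difference, which was 20.3 FPKM without SMC-TAZ4SA replicate 1 and 7.94 FPKM without SMC-TAZ4SA replicate 2. The share of each gene in the sum is not moved by scaling a library. The share of Nfib was 32.3% ± 3.30 in SMC-TAZ4SA and 60.6% ± 2.22 in SMC-Ctrl (SD, n = 3 each). The share of Nfix was 35.0% ± 3.48 in SMC-TAZ4SA and 13.2% ± 0.762 in SMC-Ctrl, and that of Nfic was 32.3% ± 0.316 in SMC-TAZ4SA and 25.7% ± 1.5 in SMC-Ctrl. These shares did not overlap between the groups, whereas the sums did. The FPKM values of the same 3 genes did not overlap either, as for 82.4% of tested genes, so the shares are not a separate result. Nfia held 0.444% of the sum in SMC-TAZ4SA and 0.471% in SMC-Ctrl.

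**Figure D2:**
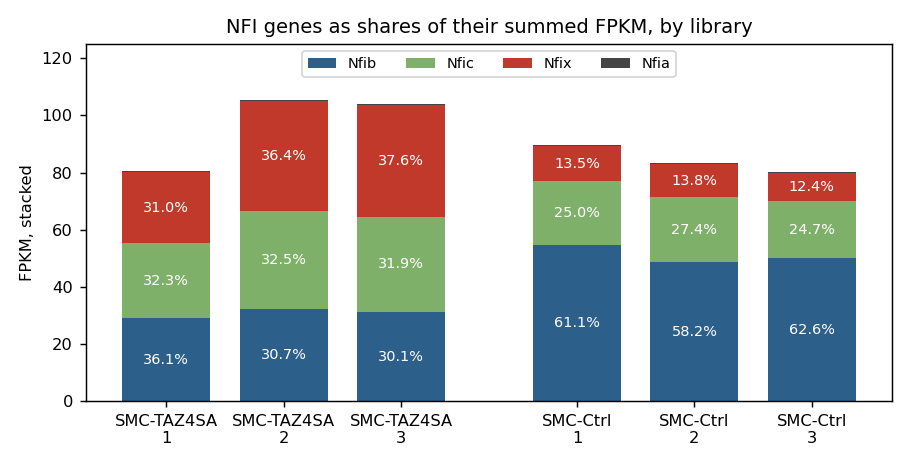
Stacked FPKM of the NFI genes in each library (vertical axis in FPKM, SMC-TAZ4SA libraries left, SMC-Ctrl libraries right), with the shares of the sum written in the bars. The sums of the groups overlapped, while Nfib held 32.3% of the sum on average in SMC-TAZ4SA and 60.6% in SMC-Ctrl.

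The same shift was read as the ratio of 2 NFI genes within a library. Nfix over Nfib was 0.859, 1.19 and 1.25 in SMC-TAZ4SA, against 0.221, 0.237 and 0.197 in SMC-Ctrl. Nfic over Nfib was 0.895, 1.06 and 1.06 in SMC-TAZ4SA, against 0.408, 0.471 and 0.394 in SMC-Ctrl. Nfix over Nfic was 0.960, 1.12 and 1.18 in SMC-TAZ4SA, against 0.540, 0.504 and 0.501 in SMC-Ctrl. None of these ranges overlapped between the groups. For Nfix and Nfic over Nfib this had to be so, since the FPKM ranges of these genes were already apart in opposite directions. No ratios of genes outside the family were computed for comparison. Taken as differences of log2(FPKM + 1), the ratios were higher in SMC-TAZ4SA by 2.22 for Nfix over Nfib, 1.21 for Nfic over Nfib and 1.01 for Nfix over Nfic. All 6 pairs of NFI genes were compared, and each gave p = 0.1 in a 2-sided exact permutation test (0.1 after adjustment over the 6 pairs), which is the smallest p that 3 libraries against 3 allow. Nfia (means of 0.421 FPKM in SMC-TAZ4SA and 0.398 FPKM in SMC-Ctrl) hardly moved on this scale, so its pairs mostly repeat the other gene. The plain ratios of Nfia over Nfic overlapped, at 0.0170, 0.0125 and 0.0118 in SMC-TAZ4SA, against 0.0183, 0.0209 and 0.0155 in SMC-Ctrl.

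**Figure D3:**
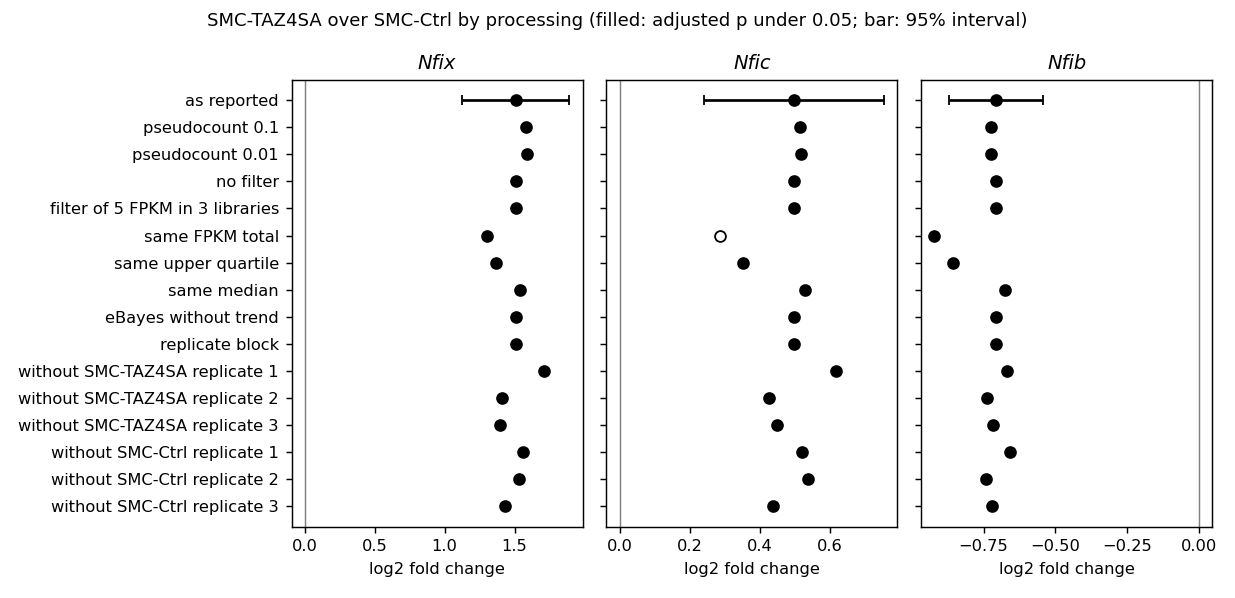
Log2 fold change of SMC-TAZ4SA over SMC-Ctrl for the tested NFI genes (horizontal axes) under the reported fit and each alternative (rows). The 95% interval is drawn for the reported fit only, and filled points mark an adjusted p under 0.05 by limma. Nfib stayed below 0 and Nfix above 0 with calls throughout, while the point of Nfic at the same FPKM total (0.29) is open.

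Genes with the most similar levels were taken as those at the smallest Euclidean distance of log2(FPKM + 1) over the 6 libraries. Nearest to Nfib were Pum2 (0.163), an RNA-binding translational repressor, Prpf4b (0.238), a kinase of pre-mRNA splicing, and Rnf44 (0.238). Pum2 was at 27.2, 31.4 and 30.2 FPKM in SMC-TAZ4SA, against 54.7, 51.4 and 53.2 FPKM in SMC-Ctrl. Nearest to Nfic were Zswim8 (0.146), Kdm4a (0.237), a histone lysine demethylase, and Ptgfrn (0.288).

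Nfix had no neighbour as close. Its nearest genes were Crim1 (0.445), a transmembrane binder of bone morphogenetic proteins, Il6st (0.536), the shared receptor subunit of the interleukin-6 family, and Pxn (0.573), the focal adhesion adaptor paxillin. Il6st was at 20.7, 30.2 and 31.3 FPKM in SMC-TAZ4SA, against 12.0, 11.5 and 10.7 FPKM in SMC-Ctrl, with replicate 1 lowest in SMC-TAZ4SA as for Nfix. Since only tested genes were candidates, the nearest genes of Nfia, Xkr8 (0.956), Mtus2 (1.02) and Gpr182 (1.02), were not close to it.

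Genes that NFI factors are known to activate in glia, muscle or tooth-forming cells were listed with 9 members, of which 5 were tested. Of these, 4 were called, all higher in SMC-TAZ4SA (80% called, where 80.3% of all tested genes were). Slc1a3 and Zcchc24 passed the filter only through SMC-TAZ4SA, with every SMC-Ctrl library below 1 FPKM, so they had to differ. The other 3 had a median log2 fold change of 0.39, beside 0.02 over all tested genes. Eno3, the muscle enolase, was at 47.5, 37.3 and 37.2 FPKM in SMC-TAZ4SA, against 4.45, 4.90 and 4.81 FPKM in SMC-Ctrl (log2 fold change 2.86). Slc1a3, a glial glutamate transporter, was at 8.30, 7.41 and 8.14 FPKM in SMC-TAZ4SA and was listed at 0 in SMC-Ctrl. Zcchc24 was at 12.4, 13.0 and 12.4 FPKM in SMC-TAZ4SA, against 0, 0.0105 and 0 FPKM in SMC-Ctrl. Apcdd1, a Wnt antagonist, was higher by 0.39. Klf4 had a log2 difference of -0.12 and did not pass (adjusted p = 0.208 by limma), and with the same FPKM total or the same upper quartile it was called lower (-0.31 and -0.25). Gfap, Fabp7, Mmd2 and Ckm were not tested.

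Genes that NFI factors are known to hold down had 5 tested members of 7, of which 1 was higher, 3 were lower and 1 was not called (80% called, near the 80.3% of all tested genes). Sox9 passed the filter only through SMC-TAZ4SA and Edn2 only through SMC-Ctrl, so these had to differ. The median of the list was -0.25, with or without them. Cdkn1a, the cell cycle inhibitor p21, was at 13.4, 11.3 and 12.1 FPKM in SMC-TAZ4SA, against 111, 119 and 115 FPKM in SMC-Ctrl (-3.13). Edn2, an endothelin peptide that NFIB represses in hair follicle stem cells, was at 0.212, 0.273 and 0.0355 FPKM in SMC-TAZ4SA, against 1.90, 2.28 and 2.28 FPKM in SMC-Ctrl (-1.43). Sox9 was at 13.7, 17.7 and 17.7 FPKM in SMC-TAZ4SA, against 0.194, 0.183 and 0.232 FPKM in SMC-Ctrl (3.84). Ezh2, the methyltransferase of Polycomb repressive complex 2, was lower by a log2 fold change of -0.25 (adjusted p = 0.0149 by limma), a call that was lost without SMC-TAZ4SA replicate 2 (-0.20) or 3 (-0.23) or SMC-Ctrl replicate 2 (-0.23). Bbx did not pass (0.13, adjusted p = 0.305 by limma), and Insc and Mstn were not tested. Without SMC-TAZ4SA replicate 1, Bbx was called higher (0.26).

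Of 5 proteins known to bind or act with NFI factors, 4 were tested, and 2 of these were higher and 2 lower (median 0.17). The share called was 100%, where 80.3% of all tested genes were called. Without Sox9, which had to differ, the median was -0.55. Sox9, which also stands in the list of repressed genes and partners NFIA in glia formation, was higher, as was the corepressor gene Ski (0.88). The pioneer factor gene Foxa1 (-1.83) and Smarca4 (-0.55), the gene of the SWI/SNF ATPase BRG1, were lower.

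Nfib was read beside other SCLC factors. Of 10 SCLC oncogenes and lineage factors, all tested, 1 was higher, 8 were lower and Sox2 did not pass (0.23, adjusted p = 0.0697 by limma), with a median of -3.51, beside -0.71 for Nfib. The share called was 90%, where 80.3% of all tested genes were called. Without SMC-TAZ4SA replicate 1, Sox2 was called higher (0.33). Of the 10, 4 passed the filter only through SMC-Ctrl and had to be lower, Prox1 among them, and the other 6 had a median of -2.23. Foxa2, a factor of endodermal lineages, was lower by a log2 fold change of -5.65, and Prox1, a homeobox factor, by one of -5.18, while the oncogene Myc was higher (5.00). The difference between Nfib and these genes was not tested.

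**Figure D4:**
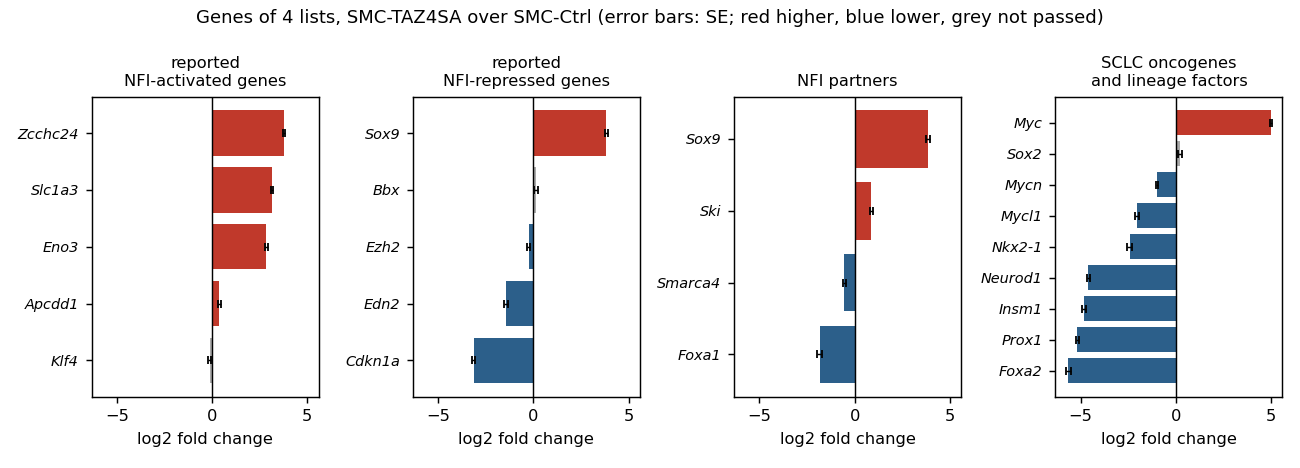
Log2 fold change of SMC-TAZ4SA over SMC-Ctrl (horizontal axes, error bars SE) for the tested genes of the lists of reported NFI-activated genes, reported NFI-repressed genes, NFI partners and SCLC factors (9 of the 10 SCLC factors are drawn), with red for higher, blue for lower and grey for not passed. Among the genes drawn, Slc1a3, Zcchc24, Sox9, Edn2 and Prox1 passed the filter through 1 group only and had to differ, as did others of the SCLC factors.

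Markers of other cells were read beside Nfix and Nfic, since fibroblasts and other stromal cells also express NFI genes. Of 10 fibroblast markers 6 were tested and all 6 were higher, but Thy1 alone reached 1 FPKM in both groups, and the other 5 passed the filter only through SMC-TAZ4SA and had to differ. The list summed to 359 to 407 FPKM in SMC-TAZ4SA, against 1.76 to 2.12 FPKM in SMC-Ctrl, most of it from Col1a1 and Pdgfrb (means of 276 and 67.1 FPKM in SMC-TAZ4SA). Col1a2, Thy1, Col3a1 and Postn were at 7.48 to 20.6 FPKM in SMC-TAZ4SA. Of the untested members, Pdgfra was at 0.653 to 0.931 FPKM in SMC-TAZ4SA, against 0.285 to 0.394 FPKM in SMC-Ctrl, and Fap, Dcn and Lum were at or below 0.0612 FPKM in every SMC-TAZ4SA library. Fap (0.0809 to 0.0912 FPKM) and Dcn (0.127 to 0.179 FPKM) were higher in every SMC-Ctrl library, and Lum was listed at 0 there. Without a filter, 7 fibroblast markers were called higher and 2 lower. Leukocyte markers summed to 4.91 to 5.96 FPKM in SMC-TAZ4SA, against 1.03 to 1.36 FPKM in SMC-Ctrl, with 2 of 3 tested members higher and 0 lower. The higher ones were Csf1r (2.97 to 3.39 FPKM in SMC-TAZ4SA, listed at 0 in SMC-Ctrl) and Cd14 (1.23 to 1.45 FPKM, against 0.0802 to 0.166 FPKM in SMC-Ctrl), which passed the filter only through SMC-TAZ4SA, and Ptprc was at or below 0.0395 FPKM in every library. Endothelial (5.36 to 6.65 against 30.5 to 35.3 FPKM), lung epithelial (12.8 to 17.0 against 22.4 to 27.6 FPKM) and glial marker sums (12.8 to 14.1 against 53.9 to 55.0 FPKM) were lower in SMC-TAZ4SA than in SMC-Ctrl. The endothelial direction rested on Vwf and the lung epithelial one on Scgb1a1. Without them the sums were higher in SMC-TAZ4SA, at 5.34 to 6.63 against 1.39 to 1.85 FPKM and at 12.8 to 17.0 against 3.35 to 4.32 FPKM in SMC-Ctrl. Endothelial markers had 2 of 3 tested members higher and 1 lower, lung epithelial markers 2 of 4 higher and 1 lower, and glial markers 2 of 2 lower, with the glial marker Sox10 listed at 0 throughout. Of these, 2 endothelial, 2 lung epithelial and 1 glial member passed the filter through 1 group only and had to differ. Most of the glial sum came from Mbp (means of 13.2 FPKM in SMC-TAZ4SA and 51.5 FPKM in SMC-Ctrl). Of all tested genes, 80.3% were called. The part of other cell types in the NFI values was not tested.

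Tested genes within 500 kb of an NFI gene were counted beside it. Around Nfix 29 genes were tested, 18 higher and 7 lower (86.2% called, median 0.40), where 80.3% of all tested genes were called, 40.7% higher and 39.7% lower. Calr, the calreticulin gene 41.5 kb away, was at 703, 585 and 587 FPKM in SMC-TAZ4SA, against 209, 221 and 219 FPKM in SMC-Ctrl (1.52), while the calcium channel gene Cacna1a (-3.77) and the meiotic gene Syce2 (-1.40) were lower. The count of lower genes around Nfix was 4 with the same library median or without SMC-Ctrl replicate 2 or replicate 3. Around Nfic 35 genes were tested, 11 higher and 15 lower (74.3% called, again near the 80.3% of all tested genes, median -0.08), and 7 were higher with the same FPKM total. The tight junction gene Tjp3 (-4.46), Atcay (-2.70) and the RNA-binding protein gene Celf5 (-2.31), 3.59 kb from Nfic, were lower, and these 3 were among 6 neighbours of Nfic that passed the filter only through SMC-Ctrl and had to differ, as Cacna1a did beside Nfix.

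Around Nfib 4 genes of the table lay within 500 kb, of which 2 were tested and both were lower, as were 39.7% of all tested genes. Cer1, a secreted antagonist of Nodal and BMP signals 176 kb from Nfib, was listed at 0 in SMC-TAZ4SA and was at 51.9, 48.8 and 47.6 FPKM in SMC-Ctrl. Zdhhc21, a palmitoyltransferase gene 93.0 kb away, was at 5.23, 5.84 and 6.24 FPKM in SMC-TAZ4SA, against 12.5, 10.6 and 11.4 FPKM in SMC-Ctrl (-0.88). Cer1 passed the filter only through SMC-Ctrl and had to be lower. The single tested neighbour of Nfia, Tm2d1, had a log2 difference of 0.07 and did not pass (adjusted p = 0.582 by limma), although it did without SMC-TAZ4SA replicate 1.

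**Figure D5:**
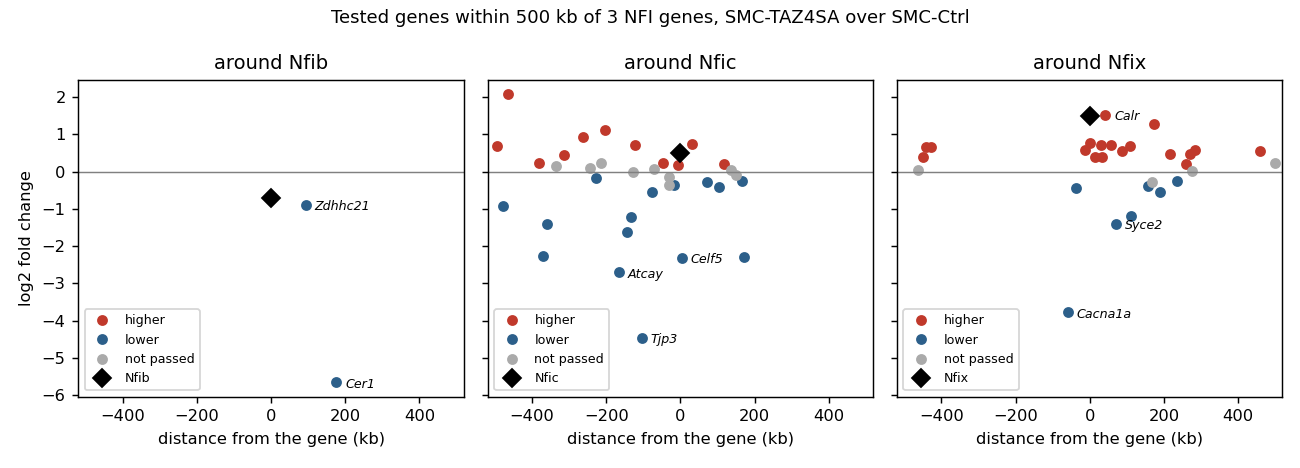
Log2 fold change of SMC-TAZ4SA over SMC-Ctrl (vertical axis) of tested genes by distance from Nfib, Nfic or Nfix (horizontal axes, kb, within 500 kb either side), with the NFI gene as a black diamond at 0 and colours for higher, lower and not passed. Genes around Nfic (11 higher, 15 lower) and Nfix (18 higher, 7 lower) lay on both sides of 0, and of the 2 lower neighbours of Nfib, Cer1 passed the filter only through SMC-Ctrl.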

How the data were processed

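RNA was sequenced from 3 SMC-TAZ4SA and 3 SMC-Ctrl libraries. Per the study's methods, TRIzol was used for extraction, sequencing was paired-end on a NovaSeq and the genome was mm10. STAR 2.6 is named in the processing notes of the submitters. Expression was deposited by the authors as FPKM, 1 column per library. Not given in the sources used here are its tool, its annotation and the use of strand. FPKM keeps no read number, so the depth is unknown, and low values moved in steps that gave relative depths of 0.714 to 1.09 (SMC-Ctrl replicate 1 set to 1). A zero can be a failed estimate.

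Of 23847 lines and 23361 symbols, 254 symbols on several lines were left out, and 92.8% of symbols (21685) were found exactly once in GENCODE M21. Symbols absent there or found more than once could not be counted as neighbours. Values were transformed to log2(FPKM + 1) and genes with at least 1 FPKM in at least 3 libraries entered a linear model in limma 3.58.1 (R 4.3.3, group as the only term, empirical Bayes with trend, 2-sided, Benjamini-Hochberg over 12141 genes, threshold 0.05). The study's methods name DESeq2, a count test that FPKM values do not allow. The fit was tested on simulated data in which far fewer genes changed than were called here, so that test does not speak for the calls in these data. Ratios of NFI genes were compared by exact permutation tests. Promoter sequences came from RefSeq (GRCm38.p6).

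The members and lists were chosen with earlier results of these data known. The rule named all NFI genes, up to 4 genes with the largest absolute fold change among the called genes of a list, up to 3 tested neighbours and the 3 nearest genes by distance. Other list members named in the text, marker genes and Tm2d1 were named for their absent or lost call or as markers, after their values were seen. Genes of the lists that are not named are not reported here and enter the counts, sums and medians only. Alternatives changed the pseudocount, filter, scaling, variance trend, replicate block and libraries left out, and those for list and neighbour counts were added after seeing the data.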

Additional observations from a re-analysis of the deposited data

How the results depend on the processing

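Nfib and Nfix kept their direction and passed limma's test under all 15 alternatives (log2 fold change -0.92 to -0.66 and 1.30 to 1.71, adjusted p up to 4.04e-04 and 7.24e-04). Nfic kept its direction under all 15 and passed under 14 (0.35 to 0.62), and with the same FPKM total it was 0.29 (adjusted p = 0.0838 by limma), where the summed NFI difference was -1.01 FPKM in place of 12.3 FPKM (7.94 to 20.3 FPKM leaving out each library in turn). That scaling moved the median over the 12141 genes to -0.18, and the same upper quartile moved it to -0.12, in place of 0.02. The share of called genes that were higher was 40.4% with the same FPKM total and 50.6% as deposited. Nfia, not tested, had a difference of 0.10 with a pseudocount of 0.01 in place of 0.03. Leaving out each library in turn gave -0.74 to -0.66 for Nfib, 0.43 to 0.62 for Nfic and 1.40 to 1.71 for Nfix, with all 3 calls kept, and 9111 to 10150 called genes. Without a filter 11853 of 17987 genes were called, and 7650 of 9561 with a filter of 5 FPKM. The cause of the lost call of Nfic was not tested.

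Replicate numbers in the titles are shared by the groups, but deviations of same-numbered libraries from their group means correlated at -0.25, -0.06 and -0.31, so the numbers were not taken as pairs, and no library correlated best with its own number. With the replicate block 9350 genes were called in place of 9754, and Nfib (-0.71, adjusted p = 4.04e-04), Nfic (0.50, adjusted p = 0.00549) and Nfix (1.51, adjusted p = 1.54e-04) still passed by limma.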
